A study of Caenorhabditis elegans with 2 samples.

Results

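The genes described here encode the machinery that removes introns and forms the 3′ ends of mRNAs in C. elegans, examined for binding of the chromatin protein FLT-1 at their promoters. They were chosen by gene name alone, as the protein-coding genes whose names begin with snr, snrp, rsp, prp, uaf, sfa, sftb, repo, mog, hrpa, hrpf, hrpk, cpsf, cpf, cfim, fipp, pcf or suf and a hyphen. The rule found 63 genes among 19973 nuclear protein-coding genes. No binding value entered the rule itself, but the set was chosen with earlier results of these data known. The study was a chromatin immunoprecipitation with sequencing of FLT-1, also named BAZ-2, with 1 group of 2 biological replicates and no second condition. Both replicates were whole early embryos aged 1 hour, collected by egg bleaching, of strain OP797. This strain has the unc-119 (tm4063) mutation and the integrated transgene wgIs797, a fosmid copy of flt-1 joined to TY1, EGFP and 3xFLAG tags with unc-119(+) as the rescue. Antibody against green fluorescent protein therefore recovered the tagged transgene product, from all cells of the embryo together, and not the native protein. Read numbers are not part of the peak lists, which leaves the sequencing depth of both replicates unknown. No control library was analysed here.

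Introns are removed by the spliceosome, which is built from small nuclear RNAs and their proteins. A ring of Sm proteins holds each of the U1, U2, U4 and U5 RNAs, further proteins read the splice sites, and helicases drive the rearrangements between steps. The 3′ end of an mRNA is made by a separate set of cleavage and polyadenylation factors that recognise the poly(A) signal, cut the transcript and add the tail. In C. elegans the same machinery also joins a spliced leader to the start of most mRNAs and separates the transcripts of operons, so that splicing and 3′ end formation are coupled there. FLT-1 belongs to the BAZ2 family, whose vertebrate proteins are partners of chromatin remodelling enzymes.

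Of the 63 genes, 9 had an FLT-1 peak at the promoter in the thresholded list of the whole series, called the pooled list here, which holds 1083 peaks. They were the Sm protein genes snr-1, snr-2 and snr-4, the U5 protein gene prp-8, the splicing factor genes mog-3 and mog-5, and the 3′ end factor genes cpf-2, cpsf-1 and cfim-2. A promoter was taken as the stretch between 500 bp before and 200 bp after any annotated start of transcription, and a peak counted where its summit fell inside. That is 14.3% of the list (95% exact Clopper-Pearson interval 6.75 to 25.4), against 2.84% of the 19910 other coding genes (2.62 to 3.08). Over all coding genes the share was 2.88%. The intervals cover counting error only. No enrichment test was made, because the set was chosen with earlier results of these data known. The replicates' own lists held fewer of the genes. Replicate 1 had a promoter peak at 4 of the 63 genes (6.35%, 1.76 to 15.5), where 1.52% of all coding genes had one. Replicate 2 had 6 (9.52%, 3.58 to 19.6), where 1.87% of all coding genes had one. The 4 genes of replicate 1, cfim-2, cpf-2, mog-5 and snr-4, were also among the 6 of replicate 2, and 0.951% of all coding genes had a peak in both replicates. The promoter peaks of cpsf-1 and prp-8 were in the list of replicate 2 and not in that of replicate 1. Those of mog-3, snr-1 and snr-2 were in neither list, and no gene had a thresholded peak in 1 replicate without one in the pooled list.

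**Figure D1:**
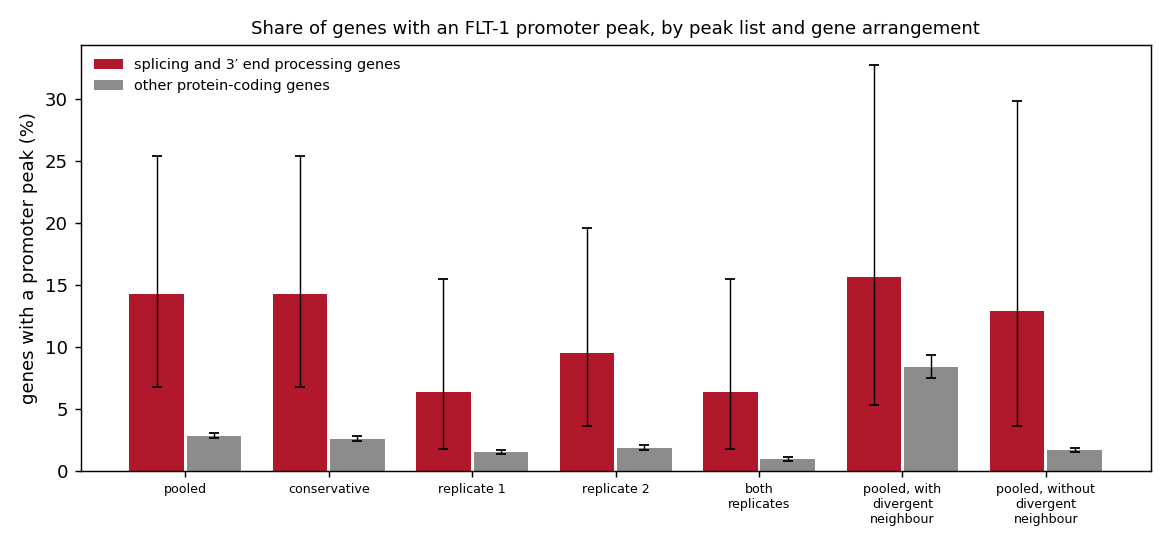
Percentage of genes with an FLT-1 promoter peak, for the 63 splicing and 3′ end processing genes (red, left bar of each pair) and the other protein-coding genes (grey), in each peak list and, at the right, within genes with or without a divergent coding neighbour in the pooled list. Error bars are 95% exact Clopper-Pearson intervals; the pooled shares were 14.3% and 2.84%, and the intervals of the 2 bars overlap among genes with a divergent neighbour.

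The count of 9 depended on the promoter width and on how summits were given to genes. When promoters reached only 250 bp to each side it was 4, because 5 of the summits lay more than 250 bp upstream, and 1.85% of other coding genes then had a peak. With each summit given to the gene with the nearest start alone it was 7 (2.16% of other genes).

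By role, promoter peaks occurred at 3 of 7 Sm core genes, 1 of 10 genes of the U4/U6.U5 tri-snRNP, 2 of 8 genes for activation and catalysis of the spliceosome, and 3 of 11 genes for cleavage and polyadenylation. None was found at 13 genes for U1, U2 and 3′ splice site recognition, 8 SR protein genes or 6 hnRNP genes. Over all coding genes the share with a promoter peak was 2.88%. These counts are small, and differences between the roles were not tested. A role without a peak was therefore not read as different from the others.

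**Figure D2:**
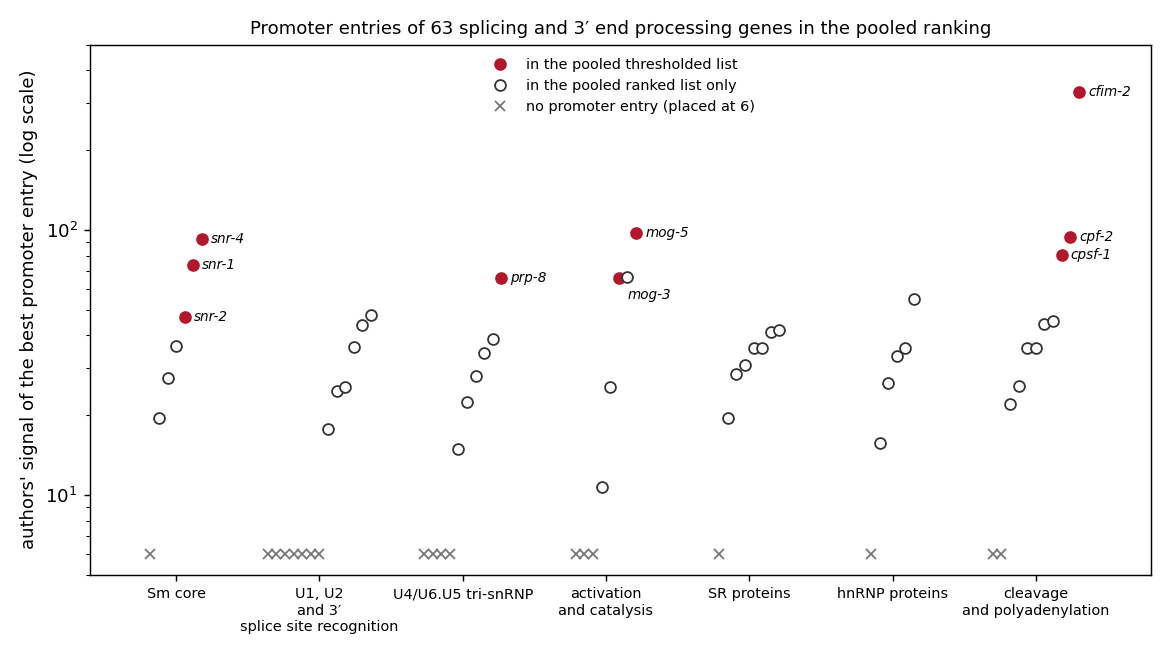
Signal of the best promoter entry of each of the 63 genes in the pooled ranked list (log scale), by role. Filled points are the 9 genes with a thresholded peak, open points have a ranked entry only, and crosses, placed at 6, are the 19 genes without an entry.

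Among the Sm core genes, snr-4, which encodes SmD2, had the peak with the highest signal. The signal of a peak is a value the authors deposited on a scale that no source used here explains, so it is compared within a list only. The pooled peak of snr-4 (chrV:11979963-11980192) had a signal of 92.4, and the overlapping entries had 39.1 in the ranked list of replicate 1 and 59.9 in that of replicate 2. It passed the threshold in both replicates, with an irreproducible discovery rate (IDR) of 0.00284 in replicate 1 and 0.000225 in replicate 2. The IDR is the share of peaks at this rank or above estimated not to repeat between the 2 inputs compared. Within a replicate's own list it does not compare the 2 replicates. In the separate ranking of replicate against replicate, the IDR at snr-4 was 0.000296. Its summit lay 355 bp upstream of the start of snr-4 and 40 bp from C52E4.8, an annotated snRNA gene on the opposite strand. The summit itself lay within C52E4.14, an unclassified non-coding RNA gene located between snr-4 and C52E4.8. An Sm protein gene and a gene for a small nuclear RNA, the class of RNA that Sm proteins bind, thus flanked it. The peak reached into C52E4.8. How much of the peak belongs to snr-4, C52E4.14 or C52E4.8 was not tested.

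The sequence of the snr-4 peak is shown for this overlap, on the plus strand of WBcel235, with the 75 bases that belong to C52E4.8 in capitals. These bases are the beginning of the 144-bp snRNA gene.
snr-4: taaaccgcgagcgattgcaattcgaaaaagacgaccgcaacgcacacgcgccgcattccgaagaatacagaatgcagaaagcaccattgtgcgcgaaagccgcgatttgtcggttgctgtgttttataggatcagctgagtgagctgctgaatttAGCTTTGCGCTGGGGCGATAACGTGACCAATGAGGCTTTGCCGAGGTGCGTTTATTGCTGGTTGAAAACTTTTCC

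The 2 other Sm genes shared their peak with a divergent neighbour, a gene that starts on the opposite strand and is transcribed away from them. The peak of snr-1, the SmD3 gene (chrIV:17087507-17087736), had a signal of 73.9 in the pooled list, 32.8 in replicate 1 and 39.8 in replicate 2. Its IDR was 0.0250 in replicate 1 and 0.638 in replicate 2, so it passed the threshold in neither replicate, while the pooled and the conservative list both held it. In the ranking of replicate against replicate its IDR was 0.00105. The summit lay 427 bp upstream of snr-1 and 184 bp upstream of snx-13, a sorting nexin gene whose start is 611 bp away. The peak of snr-2, the SmB gene (chrI:13338919-13339148), was the weakest of the 9, with a pooled signal of 47.0, 25.2 in replicate 1 and 23.5 in replicate 2. Its summit was 363 bp upstream of snr-2 and 103 bp upstream of W08E3.4. Its IDR was 0.721 in replicate 1 and 0.879 in replicate 2, so it passed the threshold in neither replicate. Replicate against replicate, its IDR was 0.0128. The pooled IDR of 0.00765 was the highest of the 9 genes, and 95.5% of all coding promoter peaks had a higher signal.

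The remaining Sm genes had no thresholded promoter peak. The best ranked entries of snr-6, snr-7 and snr-3, which encode SmE, SmG and SmD1, had pooled signals of 36.3, 27.7 and 19.5, at IDRs of 0.186, 0.372 and 0.904. The gene for SmF, snr-5, had no promoter entry in the pooled ranked list, and an entry with a signal of 11.0 in that of replicate 2.

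Within the spliceosome proper, prp-8 encodes the large U5 protein at the catalytic centre. Its peak (chrIII:8163923-8164152) had a pooled signal of 66.1, 28.4 in replicate 1 and 39.2 in replicate 2. Only the entry of replicate 2 was in that replicate's thresholded list, at an IDR of 0.00147 against 0.252 in replicate 1. Replicate against replicate, the IDR was 0.00229. The summit lay 335 bp upstream of prp-8, and the summit of replicate 1 was 68 bp away from the pooled one. The divergent gene bath-42 starts 990 bp away, too far for the peak to lie in its promoter as defined here. The other 9 tri-snRNP genes had no thresholded promoter peak. The nearest to the threshold was prp-31, whose product helps to link the U4/U6 particle to U5, with a pooled signal of 38.8 at an IDR of 0.0429; its entry was in the ranked list of replicate 1 (33.0) and absent from that of replicate 2. For snrp-200, the U5 helicase known as Brr2 in yeast, the pooled ranked list had no promoter entry.

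Of the factors that activate the spliceosome and act in catalysis, mog-5 had a peak in both replicates. It encodes the relative of yeast Prp22, a helicase that releases the spliced mRNA, and the mog genes are known in C. elegans for their role in the switch of the germ line from sperm to oocytes. Its peak (chrII:5399263-5399492) had a pooled signal of 97.7, 55.5 in replicate 1 and 37.8 in replicate 2, the highest pooled signal of the 9 after cfim-2. The summit lay 160 bp upstream of mog-5 and 476 bp upstream of the divergent F-box gene fbxl-3. The peak of mog-3 (chrIII:5308324-5308553), annotated as the relative of yeast Cwc25, had a pooled signal of 65.5, 37.6 in replicate 1 and 27.4 in replicate 2, at IDRs of 0.0267 and 0.334 in the replicates. Replicate against replicate, the IDR of this peak was 0.00195. Its summit lay 157 bp upstream, with no other coding promoter there.

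The mog-4 gene, for the relative of yeast Prp2, was called in 1 of the 2 series-level thresholded lists. Its entry 262 bp upstream of the start had a signal of 66.4, above those of mog-3, prp-8 and snr-2. The IDR was 0.152 in the pooled ranking and 0.00544 in the ranking of replicate against replicate, so that mog-4 was in the conservative list and not in the pooled one. The entries of the replicates had signals of 25.3 in replicate 1 and 39.5 in replicate 2, at IDRs of 0.915 and 0.222. The conservative list also held 9 of the 63 genes, with mog-4 in place of snr-2, and 2.63% of all coding genes. For mog-1, the relative of yeast Prp16, the best entry had a signal of 25.4, at 484 bp upstream.

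At the genes for 3′ end formation, cpf-2 had a peak in both replicates that lay in no other coding promoter. It encodes CstF-64, the subunit of the cleavage stimulation factor that binds the RNA downstream of the cut. The peak (chrIII:13268881-13269110) had a pooled signal of 94.2, 51.1 in replicate 1 and 48.6 in replicate 2, at IDRs of 0.000587 and 0.000610. Its summit was 113 bp upstream of the start, the closest of the 9. The peak of cpsf-1 (chrIV:2033090-2033319), the gene for the largest CPSF subunit, had a pooled signal of 80.2, 32.3 in replicate 1 and 43.4 in replicate 2. It passed the threshold in replicate 2 alone, at an IDR of 0.00102 against 0.388 in replicate 1, and lay 209 bp upstream. Replicate against replicate, its IDR was 0.000971.

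The other CstF genes, which flank a ribosomal protein gene, had ranked entries without a thresholded peak. The gene cpf-1, for CstF-50, has rpl-26 as its divergent neighbour, with starts 345 bp apart, and suf-1, for CstF-77, follows rpl-26 on the same strand after 265 bp. Their best entries had pooled signals of 45.4 and 44.0, at IDRs of 0.128 for cpf-1 and 0.0275 for suf-1. The entry of cpf-1 also lay in the promoter of rpl-26. Entries of both genes were in the ranked list of each replicate, with signals of 25.8 in replicate 1 and 23.9 in replicate 2 for cpf-1, and of 18.2 and 25.5 for suf-1.

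The strongest peak of the set lay inside cfim-2, the gene for the larger subunit of cleavage factor I, and coincided with other annotated RNA genes. It (chrIV:8927081-8927315) ranked 30 of 1083 with a signal of 332, with 172 in replicate 1 and 147 in replicate 2, each at the lowest IDR the files give (1e-05). The summit lay in an intron, 886 bp downstream of the first start of cfim-2 and 270 bp upstream of an internal start, and with the most upstream start of each gene alone it was not counted. It lay within D1046.t1, annotated as a tRNA pseudogene of 74 bp, within the unclassified non-coding RNA gene D1046.11, and 55 bp from the snoRNA gene D1046.6. The divergent gene at the first start of cfim-2, D1046.2, did not have this summit in its promoter. The share of the signal that belongs to the start of cfim-2 was not tested.

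The cfim-2 peak is shown on the plus strand, with D1046.t1 in capitals. The pseudogene lies whole within the peak, and the start of the snoRNA gene falls in the last part.
cfim-2: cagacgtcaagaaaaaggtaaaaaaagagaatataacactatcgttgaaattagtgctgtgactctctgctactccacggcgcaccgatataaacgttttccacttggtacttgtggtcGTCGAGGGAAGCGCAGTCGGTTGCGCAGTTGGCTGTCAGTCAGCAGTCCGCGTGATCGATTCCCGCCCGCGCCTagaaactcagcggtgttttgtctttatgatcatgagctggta

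**Figure D3:**
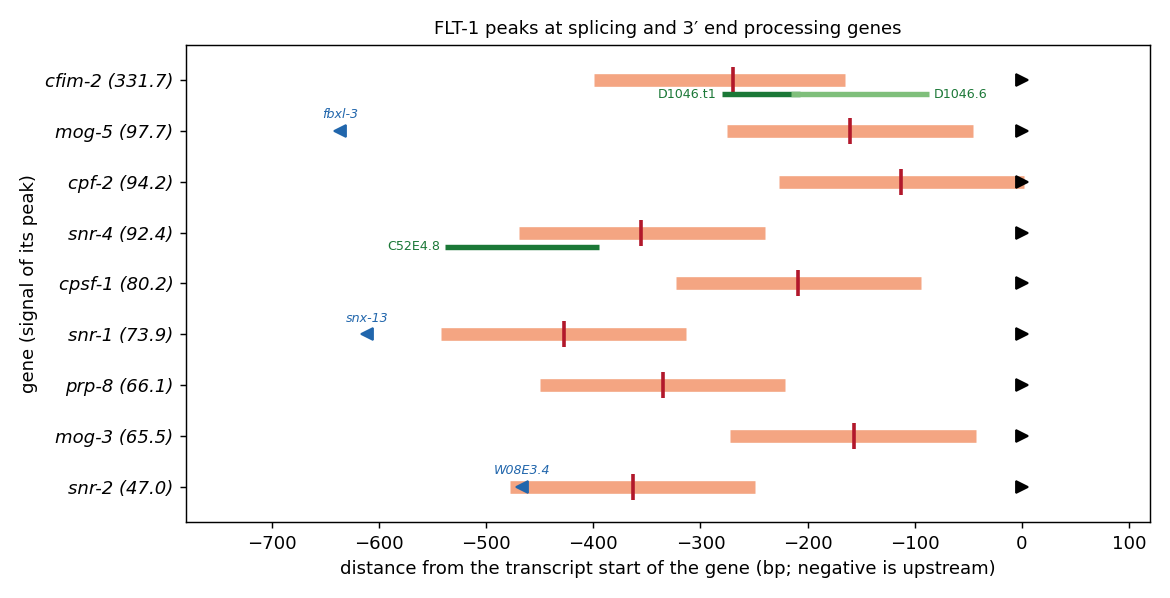
Position of the 9 peaks (orange bars, summit as a red line) relative to the nearest transcript start of the gene (black arrowheads at 0 bp, an internal start for cfim-2), strongest at the top. Blue arrowheads are the starts of divergent coding genes whose promoter holds the same summit. Green bars are the snRNA gene, the snoRNA gene and the tRNA pseudogene within 250 bp of a summit (dark green D1046.t1 and C52E4.8, light green D1046.6). The unclassified non-coding RNA genes D1046.11 and C52E4.14, which hold the summits of cfim-2 and snr-4, are not drawn.

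All 9 summits lay upstream of the start used, from 113 to 427 bp, with a median of 270 bp. Only cfim-2 and snr-4 had a tRNA, snRNA or snoRNA gene within 250 bp of the summit, 2 of 9 peaks (22.2%), against 11.2% of the 436 other coding promoter peaks; without such peaks, 7 of the 63 genes and 2.57% of other coding genes had a promoter peak. The median signal of the 9 peaks was 80.2, against 72.6 at the other coding promoter peaks. Of the 9, 4 lay over a peak of each replicate (44.4%), against 32.3% of the others, and 3 lay in several promoters (33.3%), against 31.0%. With 9 peaks these shares move by 11 points for each peak, and no difference was read from them.

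**Figure D4:**
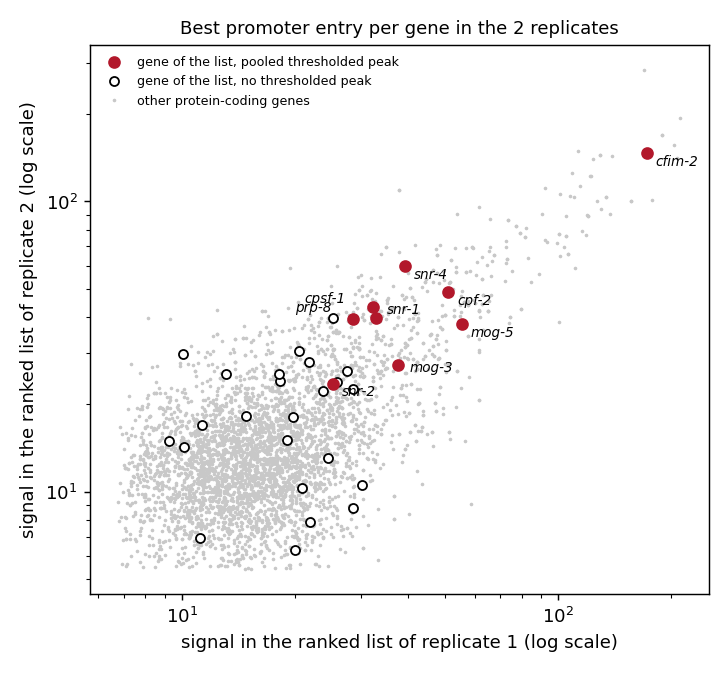
Signal of the best promoter entry of each gene in the ranked lists of replicate 1 and replicate 2 (both axes log scale), for genes with an entry in both. Red points are the 9 genes with a pooled peak, open circles other genes of the set, and grey points other coding genes; cfim-2 stands far above the remaining 8 in both replicates.

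Below the threshold, entries at these genes were common. In the pooled ranked list, which holds 48126 regions, most of them not reproducible, 44 of the 63 genes had a promoter entry (69.8%, 57.0 to 80.8), against 36.4% of other coding genes. Over all coding genes it was 36.5%. This share was not split by gene arrangement or by the number of annotated starts, each of which adds a stretch to the promoter. More than 1 start was annotated at 23 of the 63 genes, a count not made for other coding genes. The best entry had a median signal of 35.9 (quartiles 25.6 and 47.2) over these 44 genes, against 23.2 (17.5 and 31.4) over the 7247 other coding genes with an entry. Entries were also counted in each replicate's own ranked list. Replicate 1 had them at 40 genes (63.5%, against 38.2% of other genes), with a median signal of 21.8 against 14.7. Replicate 2 had them at 47 genes (74.6%, against 34.4%), with a median of 18.1 against 12.3. Across the 33 genes of the set with an entry in both ranked lists, Spearman's rho between the replicates was 0.52. Across 4149 other coding genes it was 0.46, and each value describes genes within the same pair of libraries. The best entry of a gene need not be the same site in both replicates. That of hrpa-1 lay upstream of a start in replicate 1 and downstream of a start in replicate 2. Divergent genes such as rsp-1 and rsp-2 can also share an entry, which then counts for both.

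Over all coding genes 36.5% had a pooled ranked entry and 2.88% a thresholded peak, against 69.8% and 14.3% of the set. Of the 63 genes, 35 had a pooled ranked entry without a thresholded peak. Beside mog-4, the strongest were hrpk-1 (signal 55.1, IDR 0.104), for the homologue of hnRNP K, and snrp-3 (47.9), for the U1-C protein that helps U1 read the 5′ splice site. Closest to the threshold by IDR was snrp-3, at 0.0135, just outside, while snr-2 was just inside at 0.00765. After cpf-1 and suf-1 came prp-40 (43.6), a U1-associated factor, the SR protein gene rsp-6 (41.8), rsp-8 (41.2), prp-31 and snr-6. Lower signals were those of rsp-1 and rsp-2 (35.9), rsp-7 (31.0), snr-7 (27.7), mog-1 (25.4), prp-38 (22.4), and rsp-5 and snr-3 (19.5). The others with an entry were uaf-2, hrpf-1, pcf-11, fipp-1, snrp-40.1, hrpa-1, rsp-3, snrp-27, hrpa-2, cpsf-2, sftb-2, sftb-1, cfim-1, prp-39, hrpf-2, prp-6 and mog-7, in falling order of signal. Their signals ran from 36.2 at uaf-2, the small subunit of U2AF, to 10.7 at mog-7, and the lowest IDR at the best entry was 0.0947, at pcf-11, a factor that couples cleavage to the end of transcription. At a pooled IDR of 0.05 or below, the set gained prp-31, snrp-3 and suf-1 and stood at 12 genes, against 3.84% of other coding genes. In the ranking of replicate against replicate, the IDRs of these 3 genes were 0.797, 0.0663 and 0.153.

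The 19 genes without an entry in the pooled ranked list came from each of the 7 roles. Those for U2 and 3′ splice site recognition were mog-2 (the A′ protein of the U2 snRNP), prp-9, prp-21 and repo-1 (subunits of SF3a), sftb-6 (of SF3b), sfa-1 (the branch point binding protein) and uaf-1 (the large subunit of U2AF). The tri-snRNP genes were prp-3, prp-4, snrp-200 and snrp-40.2, and those for activation and catalysis were prp-17, prp-18 and prp-19. The remaining ones were snr-5, rsp-4, hrpk-2, cpsf-3 (the endonuclease that cuts the transcript) and cpsf-4. Of these, cpsf-3, mog-2, prp-4, prp-19, repo-1 and snrp-40.2 had no promoter entry in any of the 4 ranked lists. For prp-19, whose product belongs to a complex that activates the spliceosome, the count depended on the promoter width. A peak in both replicates (chrIII:5172663-5172732, rank 262 of 1083 by signal) lay 642 bp upstream of its start, in the promoter of the divergent gene K10D2.5. With promoters of 1000 bp upstream, prp-19 and rsp-8 (signal 62.6, 580 bp upstream) joined the set, which then had 11 genes, against 3.71% of other coding genes.

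The peak counts were also read by gene arrangement. Of the 63, 32 (50.8%, 37.9 to 63.6) had a divergent coding neighbour with starts within 1000 bp, against 17.6% of other coding genes. Starts of the pairs were 74 to 990 bp apart, with a median of 445 bp. Over all coding genes, 8.42% of those with such a neighbour and 1.69% of those without had a promoter peak. With a divergent neighbour 5 of 32 genes of the set had a peak (15.6%, 5.28 to 32.8), against 8.35% of other coding genes. Without a divergent neighbour 4 of 31 had one (12.9%, 3.63 to 29.8), against 1.66%. Among the 5 genes with a divergent neighbour and a peak, the peaks of mog-5, snr-1 and snr-2 also lay in the promoter of the partner. Those of cfim-2 and prp-8 did not, and the summit at cfim-2 counted through an internal start.

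In some divergent pairs both genes belong to the splicing machinery. The SR protein genes rsp-1 and rsp-2 start 407 bp apart and shared 1 ranked entry (signal 35.9, IDR 0.240). The genes snr-3 and rsp-5 start 404 bp apart and shared a weak one (19.5, IDR 0.904). The genes rsp-7 and snu-13, which encodes a protein of the U4 snRNP, start 580 bp apart, and their shared entry had a signal of 31.0. In all, 24 of the 32 genes had a pooled ranked entry, and for 19 of them the best entry also lay in the promoter of the partner. Such an entry cannot be given to either gene from its position alone. The counts of 24 and 19 were not made for other coding genes with a divergent neighbour, so no trait of the set was read from them.

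A same-strand coding gene ending within 1000 bp upstream, the arrangement of downstream genes in operons, was present at 20 of the 63 genes (31.7%, against 30.8% of other coding genes). Of these 20 genes, snr-4 alone had a promoter peak (5.00%, 0.127 to 24.9), where the share over all coding genes in this arrangement was 1.83%. Of the other 43, 8 had one (18.6%, 8.39 to 33.4), against 3.35% over all coding genes. An example is prp-38, which begins 107 bp after plrg-1 on the same strand. The peak there (chrV:10807997-10808226, signal 130, in both replicates) lay 200 bp upstream of plrg-1, a gene of the Prp19 complex, and prp-38 itself had a ranked entry of 22.4 only. Operon annotations were not used here, and distances stand in for them.

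A selection of splicing and 3′ end genes with names outside the rule was read from 3 lists. The lists are not complete and were chosen with earlier results of these data known. Of their 96 names, 87 matched a coding gene outside the set. Among these 87 genes, 9 had a promoter peak in the pooled list (10.3%, 4.84 to 18.7), against 2.88% of all coding genes. Taken alone, the list of replicate 1 had a promoter peak at 2 of the 87 genes, where 1.52% of all coding genes had one, and that of replicate 2 at 6, where 1.87% had one. Among 44 further snRNP and spliceosome proteins, plrg-1 (130) and smu-2 (54.4) had one. Among 21 regulators of alternative splicing, rsr-1 (111, both replicates), of the SR-related proteins, and fust-1 (94.3, replicate 2) did. The summit at rsr-1 also lay in the promoter of sri-5, as those at pfs-2 and cids-2, named next, did in the promoters of agl-1 and phip-1. Among 22 genes for 3′ ends and termination there were 5, namely pfs-2 (72.8), the WDR33 subunit of CPSF, cids-2 (62.7), ints-4 (61.1), a subunit of Integrator, the poly(A)-binding protein gene pab-2 (57.7), and cdl-1 (51.8), for the stem-loop binding protein of histone mRNAs. None of these 5 was in the list of replicate 1, and ints-4 and pab-2 were in that of replicate 2.

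The base composition at the 9 summits was read in windows of 201 bp. In these windows GC content was 33.3% to 51.2% with a median of 43.3%, against a median of 44.3% at the other 436 coding promoter peaks and 33.8% in windows of the same length upstream of the first start of each coding gene, centred near the median summit distance of the other peaks. The letters CGCGC, read on both strands (GCGCG on the other), occurred in 7 of the 9 windows, in 47.9% of those at other coding promoter peaks and in 11.0% of those upstream of all coding genes. The palindrome TTCGAA occurred in 6 of 9, in 15.6% and in 12.6%. The letters GGTTCGA, part of the internal promoter of tRNA genes, occurred in 0 of 9, in 7.34% and in 0.891%, and were not found at the tRNA pseudogene of cfim-2. Only this exact run was searched, so its absence does not show that the pseudogene lacks this part of the promoter. The letters TTTCAG, which end most C. elegans introns, occurred in 1 of 9, that of snr-2, in 17.7% and in 28.9%. These motifs were chosen after the windows had been seen, and a match is a description of the sequence.

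Summit windows of 4 genes are given to show this composition, on the plus strand of WBcel235 with each run of CGCGC or its complement in capitals. They are chrIII:13268896-13269096 for cpf-2, chrIV:17087522-17087722 for snr-1, chrIII:8163938-8164138 for prp-8 and chrII:5399278-5399478 for mog-5. In cpf-2 the palindrome TGACGTCA is in capitals as well, which occurred in 1 of 9 windows, in 0.688% of other coding promoter peaks and in 1.17% upstream of all coding genes. The window of mog-5, at 33.3% GC the lowest of the 9, has no CGCGC.
cpf-2: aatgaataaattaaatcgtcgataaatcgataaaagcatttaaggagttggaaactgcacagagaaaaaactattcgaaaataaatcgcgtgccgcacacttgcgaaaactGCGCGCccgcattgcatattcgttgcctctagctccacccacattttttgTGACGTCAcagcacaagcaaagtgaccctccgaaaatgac
snr-1: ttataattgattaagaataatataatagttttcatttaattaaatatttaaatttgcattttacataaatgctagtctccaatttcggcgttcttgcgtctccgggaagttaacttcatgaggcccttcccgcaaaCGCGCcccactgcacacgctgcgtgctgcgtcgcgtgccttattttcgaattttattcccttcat
prp-8: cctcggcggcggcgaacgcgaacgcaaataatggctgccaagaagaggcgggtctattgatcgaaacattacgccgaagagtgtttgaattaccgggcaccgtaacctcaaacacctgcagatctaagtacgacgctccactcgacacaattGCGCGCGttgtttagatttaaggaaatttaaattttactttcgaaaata
mog-5: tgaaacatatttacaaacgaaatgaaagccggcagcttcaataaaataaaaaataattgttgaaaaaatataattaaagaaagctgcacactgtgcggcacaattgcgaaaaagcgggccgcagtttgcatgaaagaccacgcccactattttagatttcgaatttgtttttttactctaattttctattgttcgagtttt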

How the data were processed

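FLT-1 was mapped by chromatin immunoprecipitation with sequencing in 2 biological replicates, with chromatin sonicated to 200 to 800 bp. The input signals that accompany each ranked region were treated as scores. The deposited peak lists are on ce11 (WBcel235 sequence) per the labels. The authors' signal per peak has no stated scale. The deposited score, a whole number up to 1000, follows the log2 of 1/IDR, and the deposited −log10 IDR reaches 5. Aligner and peak caller: not given in the sources used here. Of the ranked lists of both replicates, the replicate-against-replicate one was recognised by its input signals, of which 62.5% occurred in the list of replicate 1, against 3.01% for the pooled one. Only the IDR of the replicate-against-replicate list compares the 2 replicates. That of the pooled list and of each replicate's own list comes from inputs that do not set 1 replicate against the other. Depth is unknown, so no interval based on reads is given.

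Gene models were those of Ensembl release 115, with RefSeq names for 46881 of 46926 genes. A peak counted for every coding gene whose promoter held its summit, and the 20 mitochondrial peaks of replicate 2 were not used. Shares have exact Clopper-Pearson intervals at 95%. The assignment was checked on placed summits with known answers. No test was made: there is 1 group. Named were all genes of the set with a thresholded peak, the 10 others with the highest ranked signal, partners and small RNA genes at these peaks, and genes of the 3 further lists with a peak; others are named to account for every gene. The set, lists and roles were chosen with earlier results of these data known. Python 3.11.15, NumPy 2.4.6, SciPy 1.17.1 and Matplotlib 3.10.9 were used.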

Additional observations from a re-analysis of the deposited data

How the results depend on the processing

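The count of genes of the set with a promoter peak, 9 in the main setting, ranged from 4 to 6 when either replicate was left out, that is in the list of the other replicate alone. The count of genes of the 3 further lists, 9 in the main setting, ranged from 2 to 6. The count for the set was 5 among the stronger peaks, those of median signal or more (7.94%, against 1.33% of other coding genes). It was 4 when promoters reached 250 bp to each side (6.35%, against 1.85%). In the other settings the count for the set was from 7 to 12, and the share of other coding genes ran from 2.16% to 3.84%. The median signal of its peaks, 80.2, was 94.2 among the stronger peaks, 87.2 for the narrow promoters, 92.4 with the nearest start alone, 73.9 without peaks near tRNA, snRNA or snoRNA genes, and 77.0 with the most upstream start alone, with any overlap of the peak, and without genes that follow a same-strand gene; these shifts follow from which peaks are counted. With starts within 500 bp, 21 genes of the set had a divergent neighbour (33.3%, against 9.18% of other coding genes). No paired analysis was possible because there is 1 group and no comparison between groups. The unknown depth limits what the absence of a peak can show, and a gene without one was not detectable as bound in these lists.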
